A study of Mus musculus with 112 samples.

Results

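Crypt progenitors sorted from aged mice were compared with the same sorted population from young mice, using the 20 progenitor libraries among the 112 libraries of the series (10 aged and 10 young, chosen by the age prefix and the low-GFP mark in the column names of the deposited count table). Every animal was a C57BL/6 mouse carrying the Lgr5-eGFP-IRES-CreERT2 allele, in which GFP and a tamoxifen-inducible Cre are driven from the Lgr5 locus, so the reporter allele was shared by all groups. Cells came from crypts of the proximal small intestine and were sorted as GFP medium to low, Epcam high, CD24 low and negative for the dead-cell dye 7-AAD. Each age held 5 males and 5 females, each library from a different animal. Young animals were 2 months old, except young male 5 and young female 4 at 3 months, and aged animals were 23 to 27 months old. Aged males 1, 2 and 3 were 27, 26 and 26 months old and were also the only progenitor libraries with a suffix in their description, so their age and whatever the suffix stands for cannot be told apart. RNA was read by SC3-seq, which counts the 3′ ends of transcripts, so each value is a count of 3′ tags per gene.

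In the intestinal crypt, stem cells marked by high Lgr5 sit at the base and feed a transit-amplifying compartment whose cells divide rapidly while they choose between the absorptive and the secretory fate. Because GFP protein outlasts Lgr5 transcription, cells with medium or low GFP are mostly the early daughters of stem cells. Committed daughters become enterocytes, or goblet, enteroendocrine, tuft and Paneth cells.

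The libraries held 2778476 to 5718193 counts in young and 2476086 to 7569896 in aged animals, and the difference in depth was within the spread between animals (two-sided exact permutation test within sex, p = 0.147). Median correlations with libraries of the same age were lowest in aged males 1, 2 and 3 (0.917, 0.920 and 0.921, against up to 0.948). Mitochondrial transcripts took 4.42 ± 1.40% of counts in young and 4.18 ± 1.31% in aged samples (exact permutation test, p = 0.693). The defining markers of the gate were present: Epcam ranged from 537 to 1029.5 CPM (counts scaled to a common library total) in young and from 517 to 922 in aged samples, and the cell surface protein gene Cd24a from 158 to 282 and 179 to 286. The stem cell gene Lgr5 was low in both, at 0.978 to 17.1 CPM in young and 0 to 18.6 in aged samples, and the proliferation marker Mki67 ranged from 203 to 420 and 198 to 344 CPM. None of these 4 genes passed the test for age. Mki67 passed it, with a lower aged level, without aged female 5 (edgeR adjusted p = 0.0241), without young female 4 (0.0341) and without the 3-month animals (0.0408). All CPM values above and below are scaled by edgeR's TMM factors, and changes are aged over young.

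Few genes passed the test for age, though 1070 were at an unadjusted edgeR p under 0.05. Of 11812 genes tested, 86 passed an adjusted p of 0.05 (0.728% of genes, edgeR quasi-likelihood test with Benjamini-Hochberg adjustment), of which 55 rose in aged progenitors (0.466%) and 31 fell (0.262%). Without scaling of library totals the split was 43 higher and 38 lower. The direction was the same in males and females for all 86, which the selection favours, since calls were made on the mean of both differences. At least a 2-fold change was fitted for 21 of the genes that rose and 14 of those that fell. Refitting 20 times with 1 sample left out each time left every one of the 86 with its direction, and 47 were called in all 20 fits. Without the 3 aged males of 26 and 27 months, all 86 kept their direction and 29 stayed called, 20 higher and 9 lower. The refits share most samples with the fit that made the calls, so kept directions are no independent support. The plot of fold change against mean level shows where the called genes lie.

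**Figure D1:**
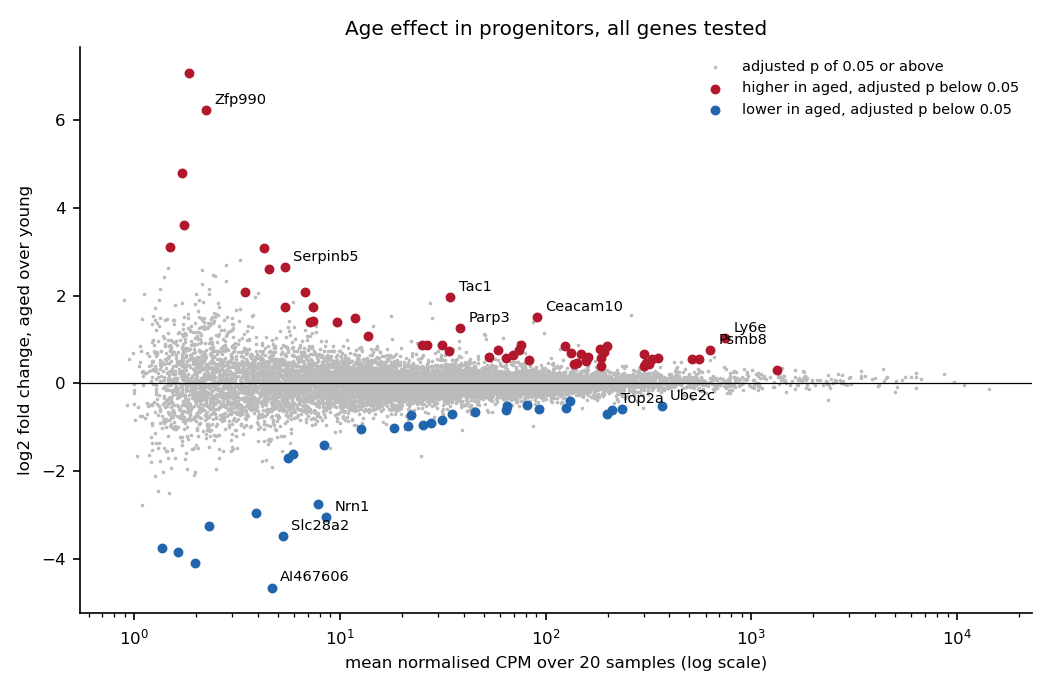
Fold change of every tested gene. The x axis is the mean normalised CPM over the 20 samples (log scale), the y axis the log2 fold change, aged over young, each point 1 of 11812 genes, with the 55 called higher in red and the 31 called lower in blue. Most abundant genes lie near 0, and Ly6e, Ceacam10 and Psmb8 are labelled among the called genes of higher level.

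The clearest change was in Ly6e, which encodes a GPI-anchored surface protein of the Ly6 family (chr15:74955051-74959905, plus strand, mm10, a protein-coding gene). Young samples lay at 426 CPM at the lowest, 483 at the median and 620 at the highest, and aged samples at 793, 1038 and 1187. All 10 aged samples lay above all 10 young ones. The mean was 490 ± 57.6 CPM (SD, n = 10) in young and 1006 ± 144 CPM in aged samples, a 2.05-fold difference, and the fitted log2 change was 1.03 ± 0.09 (SE, edgeR adjusted p = 1.83e-09). It was called in males (0.94 ± 0.12) and in females (1.13 ± 0.12), as separate contrasts of the same fit of 20 samples.

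Samples of the 2 ages did not overlap for 7 of the 11812 genes (0.0593%), 4 higher (0.0339%) and 3 lower (0.0254%) in aged samples, of which 6 are described here. Among them, Prss32, Ctsh and Tceal8 were singled out after their values were seen. Prss32, a serine protease gene, lay between 392 and 516 CPM in young samples (median 453) and between 536 and 806 in aged ones (median 648), a log2 change of 0.55 ± 0.08 (edgeR adjusted p = 0.000212). Ctsh, the gene of the lysosomal protease cathepsin H, went from a young range of 89.2 to 147 CPM to an aged range of 148 to 227, so that its highest young and lowest aged samples nearly met (log2 change 0.66 ± 0.11).

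Slc28a2 fell without overlap of the groups (chr2:122426477-122461137, plus strand, mm10). It encodes a sodium-coupled concentrative transporter that takes up purine nucleosides. Young samples ranged from 4.56 to 19.4 CPM with a median of 10.2, and aged samples from 0 to 2.01 with a median of 0.931. Aged males 1 and 2 and aged female 4 had no counts. The log2 change was −3.47 ± 0.51 (edgeR adjusted p = 0.000174), with −3.56 in males and −3.38 in females. No other member of the list of nucleoside and nucleobase transporters passed the test (7 tested, 1 fell, median log2 change 0.11 against 0.00 over all genes tested). Reps1, whose product takes part in endocytosis, lay at 17.9 to 33.1 CPM in young and 7.68 to 16.8 CPM in aged samples, a log2 change of −1.02 ± 0.19 (edgeR adjusted p = 0.00373), and missed the threshold without the 26- and 27-month animals (adjusted p = 0.0722). Tceal8 was at low level, 1.37 to 9.16 CPM in young samples, and was at 0 in most aged samples, with 0.893 CPM as its highest value.

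Nrn1, the gene of the GPI-anchored protein neuritin and a member of the stem cell marker list, fell and was lowest in aged males (chr13:36725361-36735131, minus strand, mm10). Young samples ranged from 7.32 to 21.6 CPM (median 13.6). Aged males lay at 0, 0.89, 1.44, 0.21 and 0 CPM, and aged females at 8.89, 2.55, 6.99, 8.41 and 2.93 CPM. So 8 of 10 aged samples lay below all young ones, and the exceptions were aged females 1 and 4. The log2 change was −3.05 ± 0.40 (edgeR adjusted p = 3.33e-05), −4.85 in males and −1.24 in females, and the test of that difference gave an adjusted p of 0.266.

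**Figure D2:**
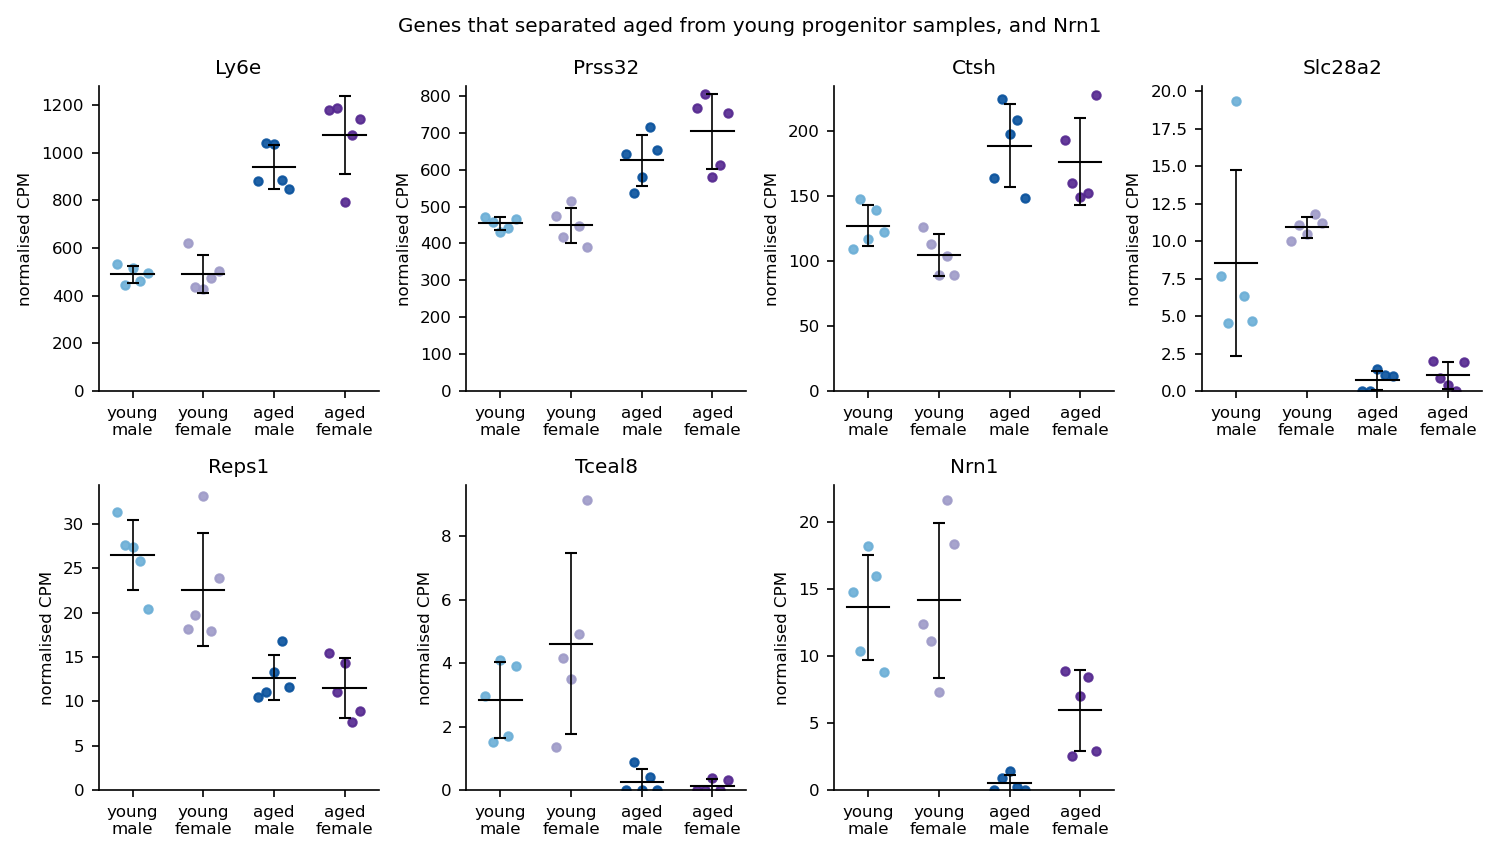
Normalised CPM (y axis, from 0) in each of the 20 progenitor samples by age and sex for 7 genes. Points are animals, bars the mean and whiskers the SD of 5 animals. The first 6 genes have no overlap between ages, and Nrn1 is at most 1.44 CPM in aged males.

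Other genes with large rises had varied roles. Serpinb5, the maspin gene of the serpin family, went from a young median of 1.21 CPM (0 to 3.74) to an aged median of 9.07 (3.71 to 18.2), with 9 of 10 aged samples above all young ones (log2 change 2.65 ± 0.45, edgeR adjusted p = 0.00107). Ceacam10, of the carcinoembryonic antigen family, lay at 22.3 to 70.9 CPM in young samples (median 45.9) and 51.8 to 260 in aged ones (median 138), with 8 of 10 above all young samples (log2 change 1.50 ± 0.22). Parp3, an ADP-ribosyltransferase gene that acts in the repair of DNA breaks, lay at 10.5 to 35.0 CPM in young (median 21.2) and 30.7 to 88.9 in aged samples (median 52.4, log2 change 1.26 ± 0.19). Card6, which holds a caspase recruitment domain, rose by a log2 change of 1.50 ± 0.28, and Iyd, the iodotyrosine deiodinase gene, by 1.73 ± 0.38. These 5 genes were called in all 20 fits with 1 sample left out, and Card6 and Iyd lost the call without the 26- and 27-month animals (adjusted p = 0.152 and 0.108).

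The calls of Stom, Atxn1 and Tmed6 depended more on single samples. Stom, the stomatin gene, had a log2 change of 1.42 ± 0.35 and missed the threshold in 15 of the 20 fits (highest adjusted p = 0.111, without aged female 4). Atxn1, the ataxin-1 gene, changed by 1.40 ± 0.34 and missed it in 11 fits (0.0901, without aged male 3). Tmed6, of a family of secretory pathway cargo proteins, changed by 1.07 ± 0.26 and missed it in 13 (0.0985, without aged male 3).

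Among the falls, Cdc42bpg, a kinase gene of the Cdc42-binding family, lay at 17.1 to 41.5 CPM in young and 8.31 to 26.4 in aged samples. Its log2 change of −0.96 ± 0.20 held in all 20 fits. Prkd3, the protein kinase D3 gene, changed by −1.40 ± 0.31 and missed the threshold without young female 1 alone (adjusted p = 0.0543). Trip6, a LIM domain gene of the zyxin family, had a change of −1.61 ± 0.39 (missed in 13 fits, up to 0.118 without young male 3). Lipo3, of a lipase family, had −1.03 ± 0.24 (missed in 6, up to 0.0662 without young male 5). Tmem267 had −0.94 ± 0.23 (missed in 12, up to 0.103 without young male 1). Vkorc1l1, a vitamin K epoxide reductase gene, had −0.71 ± 0.18 (missed in 16, up to 0.128 without young female 5). Of these 6 genes none stayed called without the 26- and 27-month animals, where their adjusted p lay between 0.109 and 0.425.

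Of the 65 tested members of the mitosis and G2/M list, 8 fell in aged progenitors and none rose, 61 had a change below 0, and the list's median log2 change was −0.38, against 0.00 over all genes tested. Over all 11812 genes tested, 6007 changes were above 0 (50.9%) and 5805 below, 0.466% of genes were called higher and 0.262% lower. The counts of this and the following lists stand against these shares. The 8 mitosis genes were Ttk, Cdc25b, Kif4, Top2a, Aurka, Ube2c, Kif23 and Cdc20. Summed over the list, young samples held 6692.5 to 9304 CPM (median 7608) and aged samples 5559 to 7349 (median 6155), with 7 of 10 aged samples below all young ones. Aged male 1 and aged females 3 and 5 were the highest of the aged samples and lay within the young range.

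Top2a encodes the topoisomerase that untangles sister chromatids (chr11:98992943-99024189, minus strand, mm10). It lay at 185 to 347 CPM in young (median 268) and 135 to 194 in aged samples (median 169), and 8 of 10 aged samples were below all young ones. The log2 change was −0.60 ± 0.11 (edgeR adjusted p = 0.00199). Ube2c, the ubiquitin-conjugating enzyme of the anaphase-promoting complex (chr2:164769898-164778822, plus strand, mm10), went from 380 to 506 CPM in young to 210 to 415 in aged samples, with aged male 1 alone inside the young range (log2 change −0.52 ± 0.10, adjusted p = 0.00304). Ttk, the Mps1 kinase of the spindle checkpoint, changed by −0.90 ± 0.18, and Aurka, the kinase of centrosome maturation, by −0.58 ± 0.12. These 4 were called in every fit with 1 sample left out. Kif4 and Kif23, which encode kinesin motors of the chromosomes and the midzone, had changes of −0.61 ± 0.15 and −0.50 ± 0.12. Cdc25b, the phosphatase that activates the mitotic cyclin-dependent kinase, had −0.70 ± 0.18, and Cdc20, the activator of the anaphase-promoting complex, −0.41 ± 0.10. These 4 missed the threshold in 10 to 16 of the 20 fits, with adjusted p up to 0.117 for Cdc25b without young female 1.

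The number of mitosis genes called ran from 4 (without aged female 4) to 11 over the fits with 1 sample left out. It was 2 without the animals of 26 and 27 months, where 62 of 65 changes were still below 0 and the median was −0.42. DESeq2 called 13. In bulk samples fewer dividing cells and less RNA per dividing cell cannot be told apart. Arhgap11a, a gene outside the list and picked after its values were seen, also fell (−0.66 ± 0.15).

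Of the 49 members tested for S phase and DNA replication, Cdc45 alone passed (1 fell, 44 below 0, median −0.21). Cdc45, part of the replicative helicase, lay at 66.4 to 90.8 CPM in young and 33.1 to 78.1 in aged samples (log2 change −0.51 ± 0.12) and missed the threshold in 8 of the 20 fits (up to 0.0645, without young male 4). No member of the list was called without the 26- and 27-month animals.

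The promoter windows of the mitosis genes are shown because these genes moved together and cell cycle promoters are known for CCAAT boxes, bound by NF-Y, and for the cell cycle homology region, with the core TTTGAA, bound by the DREAM and MuvB complexes. The 250 bases before the annotated start were read from RefSeq (GRCm38.p6) on both strands, so CCAAT also counts as ATTGG and TTTGAA as TTCAAA. The 3 of the 8 genes whose window held both motifs follow, 5′ to 3′ on the gene's strand, with matches to either motif in capitals. They lie at chr11:99024190-99024439 (minus strand, Top2a), chr4:118437344-118437593 (minus strand, Cdc20) and chr2:164769679-164769928 (plus strand, Ube2c).
Top2a: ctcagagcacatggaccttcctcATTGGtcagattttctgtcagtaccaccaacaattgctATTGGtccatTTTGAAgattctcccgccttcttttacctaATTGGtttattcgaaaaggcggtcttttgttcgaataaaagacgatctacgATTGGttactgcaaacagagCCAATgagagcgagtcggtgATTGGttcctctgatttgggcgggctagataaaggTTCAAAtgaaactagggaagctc
Cdc20: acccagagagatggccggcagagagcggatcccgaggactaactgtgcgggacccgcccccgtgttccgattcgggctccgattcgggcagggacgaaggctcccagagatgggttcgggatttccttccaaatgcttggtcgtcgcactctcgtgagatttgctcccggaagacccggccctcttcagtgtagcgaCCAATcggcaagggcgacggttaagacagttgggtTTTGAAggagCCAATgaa
Ube2c: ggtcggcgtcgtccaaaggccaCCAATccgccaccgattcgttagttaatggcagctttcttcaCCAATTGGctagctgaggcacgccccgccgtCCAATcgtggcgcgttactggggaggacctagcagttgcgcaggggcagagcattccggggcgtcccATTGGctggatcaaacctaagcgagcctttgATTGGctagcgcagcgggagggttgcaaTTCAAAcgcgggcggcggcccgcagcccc

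The Top2a window held 6 matches to CCAAT and 2 to TTTGAA, the Ube2c window 6 and 1, and the Cdc20 window 2 and 1. In Ube2c a pair of the CCAAT matches on opposite strands overlap. Each of the 8 windows held CCAAT, and 3 of 8 held TTTGAA. Over the 61 windows matched to 55 of the 65 list genes, 70.5% held CCAAT, 37.7% TTTGAA and 34.4% both. Among all 32851 RefSeq windows of this length the shares were 33.8%, 16.0% and 5.55%, and among the 11625 windows matched to tested genes 35.6%, 10.7% and 4.13%. A match is a string of letters and was not tested as a binding site.

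Of 14 tested enteroendocrine markers, 2 rose in aged progenitors (Sct and Tac1), against 0.466% of all genes tested. All 14 had a change above 0, against 50.9% of all genes, and the median log2 change was 1.05. Sct encodes the hormone secretin. It lay at 30.1 to 87.9 CPM in young samples (median 50.7) and 46.0 to 126 in aged ones (median 104), with 7 of 10 aged samples above all young ones (log2 change 0.75 ± 0.17, edgeR adjusted p = 0.0227, missed in 4 of the 20 fits with up to 0.0599 without aged male 4). Tac1 encodes the substance P precursor made by enterochromaffin cells. Its young samples lay at 5.32 to 32.9 CPM (median 11.4) and its aged samples at 11.5 to 109 (median 53.1), with aged female 3 the highest (log2 change 1.96 ± 0.44, adjusted p = 0.0483, missed in 16 fits with up to 0.109 without young male 3). Neither gene's groups separated completely.

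The summed level of the enteroendocrine list was 156 to 549 CPM in young and 388 to 1776 in aged samples, with 7 of 10 aged samples above all young ones. Aged female 3 was the highest, and aged male 5 and aged females 1 and 2 lay within the young range. The number called was 0 to 3 over the fits with 1 sample left out, with 0 without aged male 3, 5 by DESeq2 and 1 without the 26- and 27-month animals (17 tested, median 0.72). It was 0 in the fit with stem cells and 0 of 15 tested without the 3-month animals. The stromal and endothelial list summed to 10.3 to 36.6 CPM in young and 18.9 to 117 CPM in aged samples. Its sum was again highest in aged female 3, where the intermediate filament gene Vim made up 112 CPM of it. Only 3 of the 16 stromal markers were tested, and edgeR called none (Vim 1.49 ± 0.43, adjusted p = 0.174, the smooth muscle gene Tagln 0.18 ± 0.36, the lymphatic marker Lyve1 0.19 ± 0.55). In aged female 3 Tagln was at 1.32 CPM, its lowest value, and Lyve1 at 2.46 CPM, so the high sum there was that of Vim. Vim was called higher by DESeq2 (adjusted p = 0.0442), by edgeR without robust estimation (0.0292) and with the replicate block (0.00251). Of the 16 markers, 5 were at 0 in all 20 samples. Aged female 3 was also the lowest aged sample for the summed goblet (13980 CPM) and Paneth (630.1 CPM) lists. The part these markers have in the result was not tested, and in bulk samples their cell of origin is not seen.

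**Figure D3:**
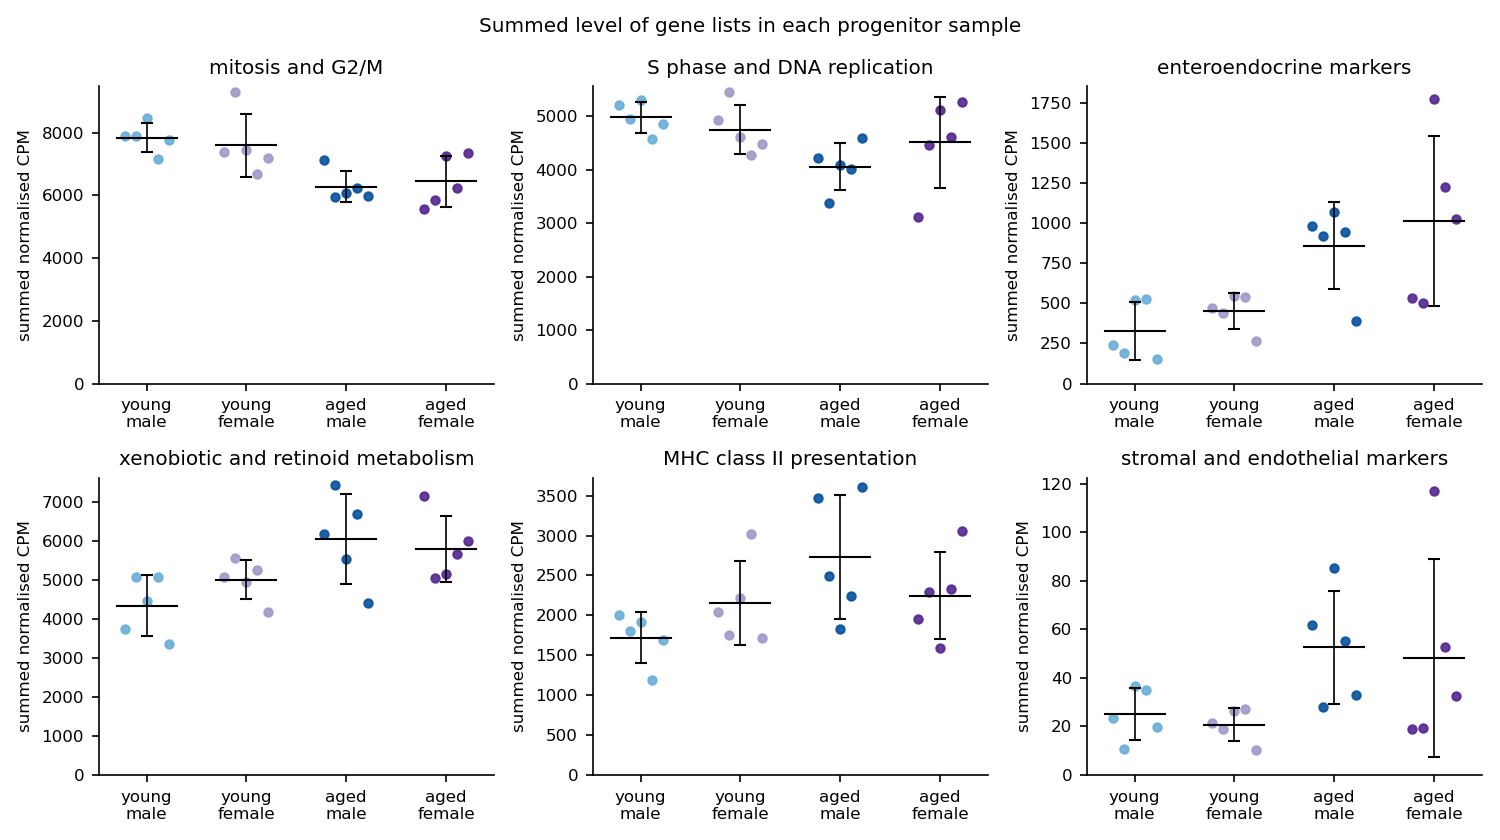
Summed normalised CPM of 6 gene lists (y axis, from 0) in each progenitor sample by age and sex. Points are animals, bars the mean and whiskers the SD of 5 animals. The mitosis sums are 5559 to 7349 CPM in aged and 6692.5 to 9304 in young samples, and the enteroendocrine and stromal sums are highest in aged female 3.

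Of 51 tested genes of drug and retinoid metabolism, 5 rose and none fell, against 0.466% and 0.262% of all genes tested. A change above 0 was found for 45, against 50.9% of all genes, and the median was 0.35. The number that rose was 0 of 54 in the fit with stem cells and 2 of 54 without the 26- and 27-month animals. Ces1f, a carboxylesterase, lay at 67.0 to 186 CPM in young (median 147) and 140 to 308 in aged samples (median 241), with 8 of 10 aged samples above all young ones (log2 change 0.78 ± 0.14, edgeR adjusted p = 0.00199). The fatty acid hydroxylase gene Cyp4f14 lay at 171 to 383 and 352 to 513 CPM (0.57 ± 0.11). Fmo1, a flavin-containing monooxygenase gene, went from a young median of 3.65 CPM to an aged median of 11.8 (1.74 ± 0.38). Cyp2b10, a target of the xenobiotic receptor CAR, had medians of 0.539 and 8.51 CPM (2.60 ± 0.60), and Cyp2d26 of 17.2 and 30.3 CPM (0.87 ± 0.21). Ces1f, Cyp4f14 and Fmo1 were called in all fits with 1 sample left out. Cyp2b10 missed the threshold in 6 (up to 0.0602 without aged male 3) and Cyp2d26 in 12 (up to 0.113 without aged male 2). Ces1f and Fmo1 were also called without the 26- and 27-month animals.

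Of 30 tested enterocyte markers none was called by edgeR, 28 had a change above 0 and the median was 0.24. By sex it was 0.44 in males and 0.11 in females. The median was 0.13, with 22 above 0, without the 26- and 27-month animals, and with 1 sample left out it lay between 0.12 (without aged male 2) and 0.34 (without young male 4). The 3 with the smallest p were Dgat2, an enzyme of triglyceride synthesis (0.52 ± 0.16, adjusted p = 0.153), Apoa1, an apolipoprotein (1.15 ± 0.36, 0.249), and Cyp3a25 (1.20 ± 0.46, 0.36). Apoa1 was called without robust estimation (adjusted p = 0.0418) and without aged male 5 (0.0384). Summed, the list was 3207 to 4826 CPM in young and 3570 to 6230 in aged samples. Of 34 genes of fatty acid oxidation and PPAR targets, 1 rose and 29 were above 0 (median 0.11). That gene was Vnn1, the pantetheinase gene, which lay at 2.06 to 9.25 CPM in young and 7.22 to 24.5 in aged samples (1.39 ± 0.27, edgeR adjusted p = 0.00392) and was at an adjusted p of 0.0715 without the 26- and 27-month animals. Of 75 nuclear-encoded respiratory chain genes, 65 were above 0 and none was called (median 0.12).

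A few called genes outside the lists are described here, picked after their values were seen. Slc39a4, the zinc importer ZIP4, lay at 200 to 293 CPM in young samples (median 219) and 252 to 489 in aged ones (median 373), with 9 of 10 above all young samples (log2 change 0.67 ± 0.10, edgeR adjusted p = 0.000339). Tmem205, a membrane protein gene, changed by 0.72 ± 0.11, Agmat, an agmatinase, by 0.85 ± 0.16, and Car4, a membrane carbonic anhydrase of absorptive cells, by 0.56 ± 0.11. Cldn3, a tight junction claudin, had the smallest called change, 0.31 ± 0.08, and missed the threshold in 16 of the 20 fits (up to 0.109 without young male 3). In the other direction Muc3, a membrane mucin gene, lay at 214 to 336 CPM in young and 97.9 to 402 in aged samples (−0.58 ± 0.13), and aged female 4 was the highest of all 20.

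Antigen presentation genes rose in single members. Psmb8, an immunoproteasome subunit, lay at 318 to 619 CPM in young samples (median 443) and 432 to 1148 in aged ones (median 793), with 7 of 10 above all young ones (log2 change 0.76 ± 0.12, edgeR adjusted p = 0.000917). It was the only call among 26 genes of class I presentation (18 above 0, median 0.11, or 0.35 in males and 0.01 in females). H2-DMb1, which helps load peptide on class II molecules, lay at 29.3 to 98.9 CPM in young and 57.5 to 169 in aged samples (0.87 ± 0.17, adjusted p = 0.00392). It was the only call among 9 class II genes, and only 2 aged samples exceeded every young one. All 9 had a sex-averaged change above 0, with a median of 0.39, but the median was 0.88 in males and 0.06 in females. H2 genes have close relatives, and reads shared between them could have been miscounted. Immune cell markers were low: 4 of 31 were tested, none was called (Cd68 0.59 ± 0.60, Cd52 −0.44 ± 0.52, Cd79b 0.10 ± 0.40), their sum was 12.8 to 20.7 CPM in young and 9.64 to 25.5 in aged samples, and 5 were at 0 in all samples.

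Interferon-stimulated genes gave a single call: of 46 tested, Ly6e alone passed, 20 were above 0, and the median was −0.06. The sum over the list was 2075 to 2821 CPM in young and 2279 to 3317 in aged samples, and Ly6e was its most abundant member. Of 25 antimicrobial genes 1 rose (Ceacam10, median of the list 0.16). Of 13 regeneration-associated genes 1 rose (Ly6e, median 0.03, −0.13 by limma-voom and −0.06 without the 26- and 27-month animals). Of 8 Ly6 and Ceacam genes 2 rose (Ly6e and Ceacam10, median 0.41). The calls of these lists are thus the same genes, Ly6e and Ceacam10, counted again. The lists were chosen with earlier results of these data known, so these calls are no separate support.

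Immediate early and stress genes gave 2 rises among 31 tested (24 above 0, median 0.21, or 0.39 in males and 0.01 in females). None was called by limma-voom, with the replicate block, in the fit with stem cells or without the 26- and 27-month animals. DESeq2 called 5, and with 1 sample left out the number was 0 (without aged male 2) to 4. Atf3, a stress-induced transcription factor, lay at 0 to 9.07 CPM in young samples and at 2.36 to 32.7 in aged ones. Aged males 1 and 2 held 32.7 and 26.2 CPM, and the other 8 aged samples at most 9.23. The log2 change was 2.08 ± 0.47 (edgeR adjusted p = 0.0203), and it was 1.04 without the 26- and 27-month animals (adjusted p = 0.692). Fosb, an AP-1 subunit, lay at 0.587 to 3.34 CPM in young and 0.850 to 11.9 in aged samples (2.09 ± 0.50, adjusted p = 0.0308), and missed the threshold in 11 of the 20 fits (up to 0.158 without aged female 4). In the integrated stress response list (28 tested, 7 above 0, median −0.08, or −0.19 in males and 0.07 in females) Atf3 rose and Phgdh fell. Phgdh, the first enzyme of serine synthesis, lay at 28.4 to 57.7 CPM in young and 9.83 to 32.5 in aged samples (−0.83 ± 0.18, adjusted p = 0.0129), with 7 of 10 aged samples below all young ones and an adjusted p of 0.202 without the 26- and 27-month animals.

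**Figure D4:**
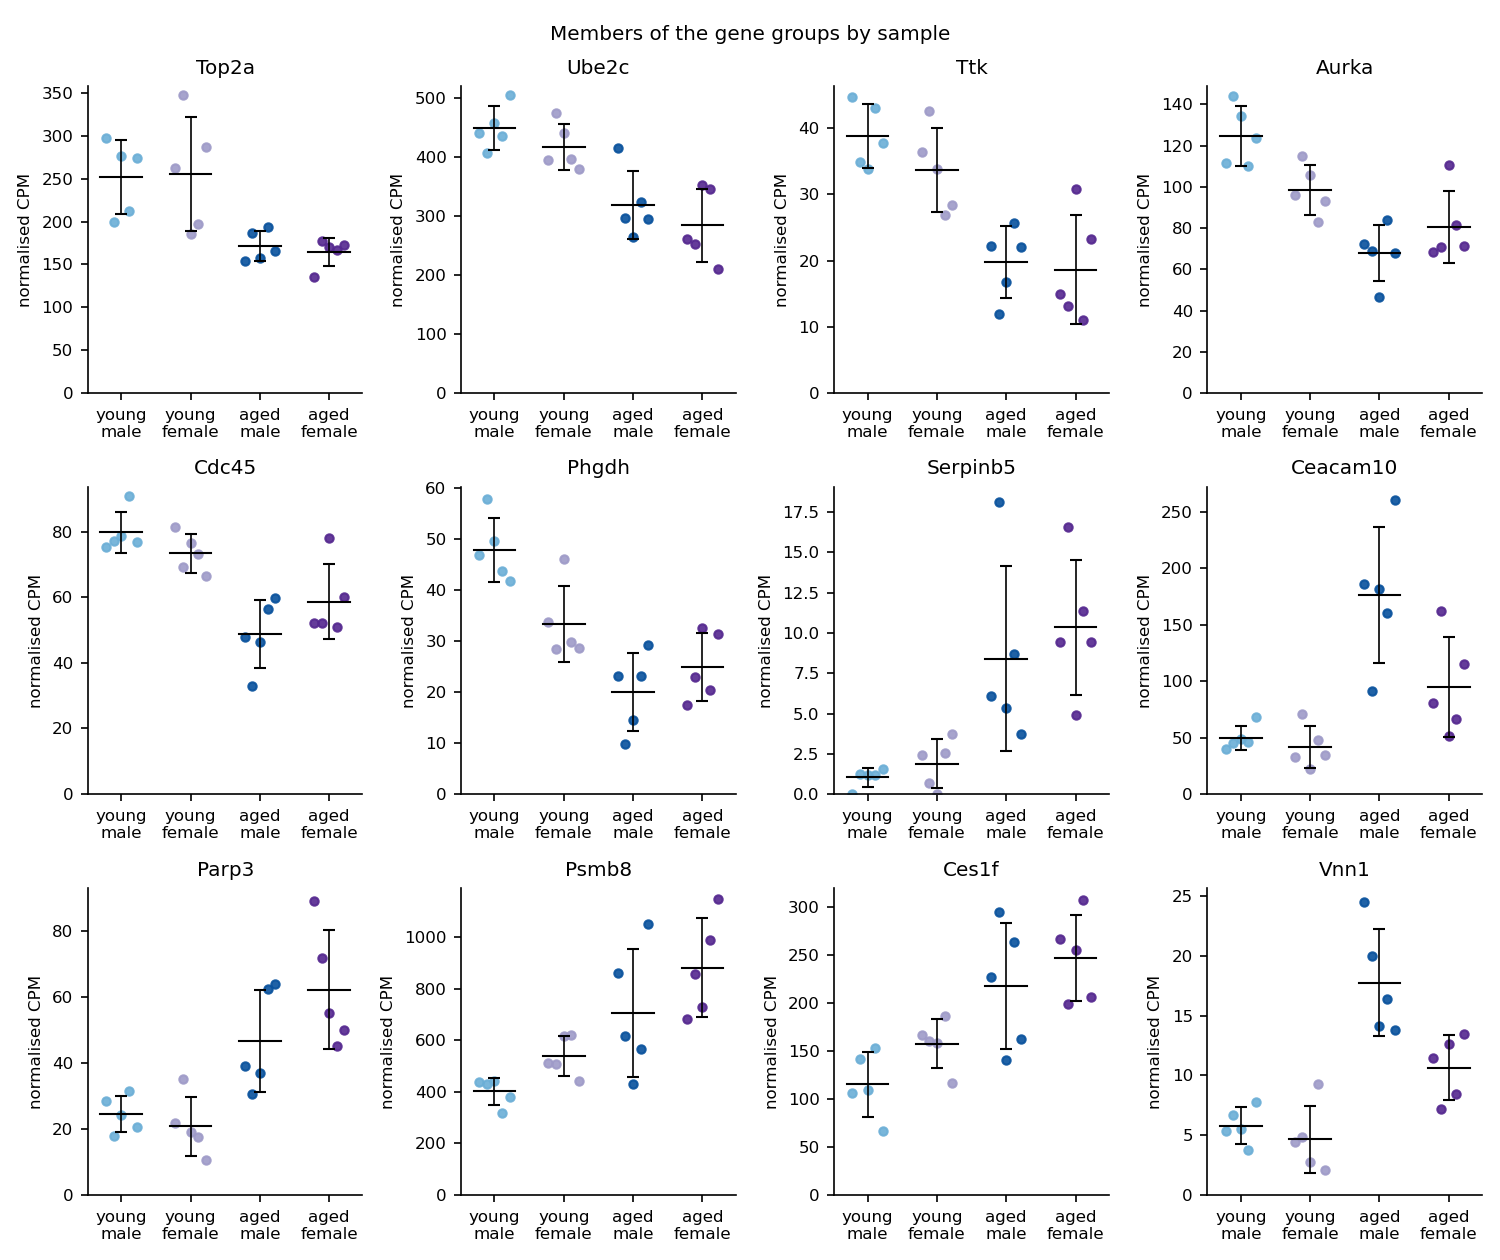
Normalised CPM (y axis, from 0) of 12 called genes in each progenitor sample by age and sex. Points are animals, bars the mean and whiskers the SD of 5 animals. Top2a, Ube2c, Ttk, Aurka, Cdc45 and Phgdh are lower and the other 6 higher in aged samples, with Ceacam10 between 51.8 and 260 CPM in aged samples.

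Among stem cell markers, Nrn1 alone was called (23 tested, 8 above 0, median −0.10, or 0.02 in males and −0.35 in females). Olfm4, a marker of stem cells and their early daughters, lay at 1119 to 2102 CPM in young and 772 to 2169 in aged samples (−0.19 ± 0.10, adjusted p = 0.635). No member of the transit-amplifying list passed (19 tested, median −0.06; smallest p for Arg2, Cenpa and Fabp1, at adjusted p of 0.512, 0.497 and 0.456). EdgeR called no goblet marker (20 tested, median 0.10), and the median was −0.10, with 4 of 20 above 0, without the 26- and 27-month animals and −0.02 by limma-voom. Reg4, also an enteroendocrine gene here, had a log2 change of 1.03 ± 0.28 (adjusted p = 0.118), and was called by DESeq2 (0.0411), without robust estimation (0.0271) and without aged male 5 (0.000559). Other goblet markers were Ccl9 at −0.31 ± 0.17 and the chloride channel regulator Clca1 at −0.37 ± 0.27. Tuft markers gave a median of 0.48 over 8 genes (Matk 1.21 ± 0.67, Ltc4s 0.84 ± 0.50, the taste-pathway channel Trpm5 −0.72 ± 0.48). The tuft median was −0.15 in males and 0.75 in females. Paneth markers gave −0.04 over 17, with −0.22 in males and 0.32 in females (Mptx1 −1.73 ± 0.49, the ribonuclease Ang4 −0.96 ± 0.50, Defa21, one of many similar defensin copies, 1.37 ± 0.60). The Paneth median was 0.15 over 19 with no filter on low counts and 0.05 without the 3-month animals, and Mptx1 was called lower by DESeq2 (adjusted p = 0.0232) and limma-voom (0.0427). No tuft or Paneth marker passed the edgeR test, but 1 tuft marker passed it with no filter on low counts, and up to 1 did when 1 sample was left out.

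Signalling and housekeeping lists held no call by edgeR, and several of their medians changed sign with the setting. Medians of the Wnt, Notch, NF-kB, unfolded protein, cholesterol and clock lists also had opposite signs in males and females. Wnt targets and receptors had a median of 0.03 over 23 genes, with beta-catenin (Ctnnb1) at −0.11 ± 0.07, Lgr4 at −0.20 ± 0.14 and Sox9 at 0.37 ± 0.19. The Wnt median was −0.02 without the 26- and 27-month animals, by limma-voom and with unscaled library totals. The Notch list had 0.11 over 16, −0.01 by limma-voom and −0.14 (5 of 18 above 0) without the 26- and 27-month animals (Notch2 −0.84 ± 0.67, its ligand Jag2 0.80 ± 0.64, Hes6 0.18 ± 0.11), and NF-kB factors 0.10 over 23 (Tnf 1.49 ± 0.49, Nfkbib 0.43 ± 0.14, Relb 0.42 ± 0.16). Targets of p53 and senescence genes had 0.18 over 21 (Perp 0.23 ± 0.09, the cell cycle inhibitor Cdkn2b 0.27 ± 0.13, and the stress cytokine Gdf15 at 0 to 2.35 CPM in young and 0 to 6.24 in aged samples). The unfolded protein response had −0.06 over 29, and 0.03 without the 3-month animals (chaperones Hsp90b1 −0.15 ± 0.09 and Dnajc3 −0.23 ± 0.11, Edem2 −0.30 ± 0.14). Cholesterol synthesis had 0.00 over 24, and −0.03 with unscaled library totals (Hmgcs1 −0.22 ± 0.16), and the clock 0.09 over 18 (Per2 1.08 ± 0.38, Per3 1.49 ± 0.58, Csnk1e −0.34 ± 0.20). Ribosome biogenesis had −0.09 over 40 genes (Polr1a −0.39 ± 0.15, Nolc1 −0.26 ± 0.11, Ddx21 −0.23 ± 0.10). The respiratory chain genes with the smallest p were Cox6a1 (0.28 ± 0.10), Ndufab1 (0.36 ± 0.13) and Ndufa6 (0.31 ± 0.12). Adjusted p lay above 0.05 for all of them.

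**Figure D5:**
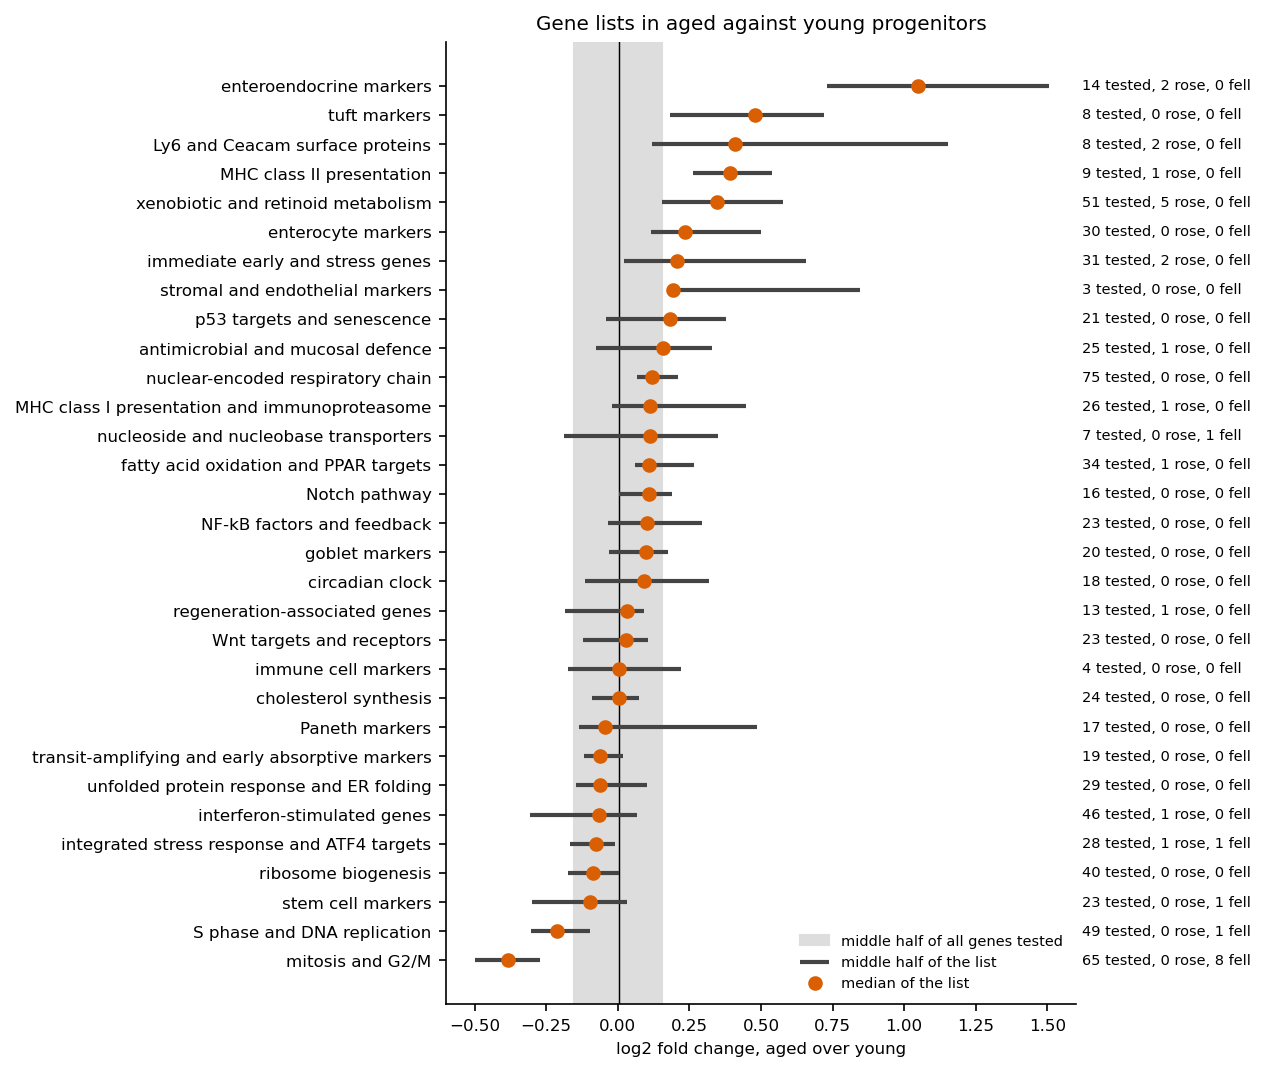
Median (point) and interquartile range (line) of log2 fold change, aged over young (x axis), for 31 gene lists, with the number tested, called higher and called lower on the right. The grey band is the interquartile range of all genes tested. The enteroendocrine list lies highest at 1.05 and the mitosis list lowest at −0.38.

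A pair of zinc finger genes on chromosome 4, Zfp990 and Zfp979, was present in some aged animals and absent from others, and both were picked after their values were seen. Zfp979 was at 0 in all 10 young samples. In aged samples it was at 0 in males 1 and 2 and females 4 and 5, and at 2.03 to 9.14 CPM in the other 6. Zfp990 was at 0 in the same 4 aged samples and at 2.87 to 11.7 CPM in the same other 6, and young female 4 alone among young samples had counts (0.393 CPM). Both were called (edgeR adjusted p = 0.0148 for Zfp990 and 0.0398 for Zfp979). The family has many similar copies, which the counting could have confused. A fitted fold change against a group at 0 is no bound and is not given.

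The age effect was called for 21 genes in males (0.178% of 11812), 11 higher (0.0931%) and 10 lower (0.0847%), and for 10 genes in females (0.0847%), 8 higher (0.0677%) and 2 lower (0.0169%). Ly6e, Slc28a2 and the low-level gene AI467606 were called in both. No gene passed the test of the difference between the sexes by edgeR (lowest adjusted p 0.124, 731 genes at an unadjusted p under 0.05), DESeq2 called 2 and the fit with no filter on low counts 4. So no gene is shown to respond to age in 1 sex and not the other.

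Stem cells sorted as GFP high from the same study (23 libraries, 11 young and 12 aged) gave the comparison with the neighbouring population. There 42 of 11958 genes were called for age (0.351%), 34 higher (0.284%) and 8 lower (0.0669%). The difference between the age effects of the populations was called for 2 of 12680 genes (0.0158%), both lower in progenitors. Ly6e had a log2 change of 1.03 in progenitors and 1.68 in stem cells, a difference of −0.64 ± 0.12 (edgeR adjusted p = 0.0201). In a joint scale its mean was 512 CPM in young and 1053 in aged progenitors (n = 10 each), and 343 and 1089 in young and aged stem cells. 5330417C22Rik, also known as Elapor1 (chr3:108455694-108536536, minus strand, mm10), was at 117 and 126 CPM in young and aged progenitors and at 24.3 and 69.2 in young and aged stem cells (difference −1.39 ± 0.24, adjusted p = 0.00491). In progenitors alone its log2 change was 0.10 ± 0.15 (adjusted p = 0.917). The fit of both populations had no term for the animal. Some animals gave both populations (10 of the 20 progenitor animals). Among them, aged female 1 of the progenitors was labelled 23 months there and 24 months in its stem cell library. A fit restricted to the animals with both populations, with the animal as a block, called 0 genes (668 at an unadjusted p under 0.05).

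Of the 86 genes called in progenitors 81 were tested in stem cells. There 16 were called in the same direction, which is 16 of 86 and 16 of the 42 called in stem cells. By sign alone, 51 of the 52 tested genes that rose and 25 of the 29 that fell had the same direction in stem cells. The share with the same direction over all genes was not computed. As 10 animals gave both populations, the shared directions are no independent support. Of the 86, 1 had a called difference between the populations. Slc28a2 had a change of −3.47 in both populations. The mitosis list's median was −0.38 in progenitors and −0.06 in stem cells, where none of the 65 was called. The median difference was −0.34 with no gene's difference called. Ube2c, with −0.52 in progenitors, was at 0.07 in stem cells, and Top2a at −0.60 and −0.35. The enteroendocrine list was little measured in stem cells, with 5 of its genes tested.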

How the data were processed

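The authors deposited a table of raw counts per gene for all libraries and a matching table of CPM. The deposited CPM equalled the counts divided by each library's total, and was used for that check only. Per the submitters' processing notes, cutadapt 3.0, STAR 2.7.9a, HTSeq 0.13.5 and DESeq2 1.30.1 were used with mm10. The sources used here give neither the annotation release nor the strand setting. Without a stated strand, reads of overlapping antisense genes cannot be told apart.

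The counts of the 20 progenitor libraries were fitted with edgeR 4.0.16 (filterByExpr with a minimum count of 10, TMM scaling, robust quasi-likelihood fit, 4 groups of age and sex). The contrast was the mean of the male and female differences, with Benjamini-Hochberg adjustment over all tested genes and a threshold of 0.05. The comparison with stem cells was fitted on both gates together, with no term for animals that gave both populations. Mitochondrial shares were compared by an exact permutation of age within sex (63504 permutations). Coordinates came from GENCODE M21 (mm10), which held 32158 of the 32285 listed IDs, and rows without a symbol held 0.00162% of the counts.

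Named genes were the 12 largest called changes in each direction with a mean of at least 5 CPM, every called list member or up to 3 with the smallest p, and the called differences. Some genes that this rule names are not reported here. The members and the 31 lists were chosen with earlier results of these data known. On data simulated from these libraries the age fit recovered 70% of genes changed by log2 1 and 92% of those changed by log2 2, with 12 false among 174 calls. Alternatives were DESeq2 1.42.0, limma-voom (limma 3.58.1), other scalings and filters, additive and blocked designs, leaving out samples, and leaving out ages.

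Same-numbered aged and young samples did not deviate together (median r = −0.00605), so replicate numbers do not pair them. Depth of 2476086 to 7569896 counts limits genes near 1 CPM to a few counts per sample, and libraries carried no stated molecular identifiers.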

Additional observations from a re-analysis of the deposited data

Results flagged for a closer look

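In 384 groups of 5 samples, 30 (7.81%) had a sample far from its group mates by Dixon's criterion. For independent, normally distributed values chance gives about 1 in 20. The groups here are unscreened CPM of chosen genes in the same libraries, so that rate is no reference for them. Values are normalised CPM, with the nearest other sample of that age and sex in parentheses. Young male 1 stood apart for 6 genes: low for Serpinb5 at 0 (1.17), Fmo1 at 1.18 (3.95) and Dgat2 at 18.3 (23.1), and high for the secretory genes Clca1 at 4238 (2608), Defa21 at 2.66 (0.912) and Ang4 at 298 (92.7). Young male 3 was high for Slc28a2 at 19.4 (7.69), Cenpa at 269 (198) and Ndufab1 at 172 (124), and young male 4 for Tac1 at 32.9 (11.9), Cdc45 at 90.8 (78.9) and Fosb at 2.06 (0.887). Young male 5 was high for Tmed6 at 14.6 (8.02) and Per2 at 9.94 (3.34), and young male 2 for Stom at 11.2 (4.14). Among young females, female 3 was high for Atf3 at 9.07 (3.54) and Cyp2b10 at 4.19 (0.692), female 5 for Iyd at 11.6 (3.81) and female 4 for H2-DMb1 at 98.9 (58.5).

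Among aged samples, female 1 was high for Cdc42bpg at 26.4 (14.9) and low for Top2a at 135 (167), female 3 low for Ccl9 at 78.1 (160), and female 4 high for Card6 at 16.5 (10.4) and Lyve1 at 6.40 (2.46). Female 5 was high for Trpm5 at 7.64 (2.58) and Cd68 at 5.04 (0.914). Male 3 was low for Cdc25b at 7.59 (23.4) and high for Polr1a at 68.1 (38.0), male 4 high for Cox6a1 at 2042 (1684), and male 5 low for Perp at 240 (295). The sample apart lay on the side that narrows the age difference for Iyd, Atf3, Tac1, Tmed6, Stom, Cyp2b10, Fosb, H2-DMb1 and Cdc42bpg, and on the side that widens it for Slc28a2, Cdc45, Top2a, Cdc25b, Card6, Serpinb5 and Fmo1.

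The difference between the age effects of progenitors and stem cells was called for 5330417C22Rik (log2 difference −1.39) and Ly6e (−0.64). That fit had no term for animals that gave both populations. On those animals alone, with the animal as a block, 0 genes were called.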

How the results depend on the processing

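The 86 genes called for age became 142 with DESeq2, 50 in the fit with stem cells (25 higher and 25 lower) and 34 without the 26- and 27-month animals, and ranged from 65 to 102 when 1 sample was left out. Male calls (21) became 64 with DESeq2, 12 with limma-voom, 10 with stem cells and 6 without the 26- and 27-month animals (10 to 43 with 1 sample left out). Female calls (10) became 37 with DESeq2, 6 with limma-voom, 1 with stem cells and 3 without the 3-month animals (1 to 13). The sex difference (0) became 4 without a filter on low counts and 2 with DESeq2 (0 to 1). The difference from stem cells (2) became 1 without the 3-month animals and 0 with the animal as a block (1 to 2). The mitochondrial difference of −0.243 points ranged from −0.448 to 0.0949, reversing without young male 1 (0.0949) and without aged female 5 (0.00267). The causes were not tested.

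With the replicate number as a block, 72 genes were called for age, 26 in males, 6 in females, 0 for the sex difference and 1 for the difference from stem cells. Of 10 pairs, 3 correlated best with their own number, so the numbers are shared in name only.

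Limits: the 26- and 27-month animals are all males with the same description suffix. Genes below about 5 CPM rest on few counts. The simulated difference from stem cells was recovered for 41% of genes at log2 1 and 73% at log2 2.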

Other observations

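In the animals that gave both populations, the zinc finger genes were present or absent in the same animals, by CPM in the scale of both populations together. Zfp990 was at 0 in progenitors and in stem cells of aged males 1 and 2. It was at 12.1 and 28.2 CPM in progenitors and stem cells of aged male 3, at 3.02 and 17.6 in aged female 1 and at 5.78 and 13.0 in aged female 2. It was at 0 in both populations of the 5 young animals. Zfp979 was at 0 in both populations of aged males 1 and 2, and at 6.60 and 1.77, 7.56 and 8.37, and 3.56 and 11.4 CPM in aged male 3, aged female 1 and aged female 2. Among young animals young female 3 alone had counts, 1.89 CPM in stem cells.

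For Nrn1, progenitors and stem cells held 0 and 15.4 CPM in aged male 1, 0.93 and 3.56 in aged male 2, 1.49 and 8.33 in aged male 3, 9.37 and 16.7 in aged female 1, and 2.67 and 23.2 in aged female 2. In all 10 animals the stem cell value was the higher one, up to 43.7 and 48.1 CPM in young male 1 and young female 1, where progenitors held 15.4 and 12.8.

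Alb, the albumin gene of liver, was called higher in aged progenitors (edgeR adjusted p = 0.0191) at very low level, with 7 young samples at 0 and a highest value of 9.51 CPM in aged female 4. It was chosen after its values were seen.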
